A study of Rattus norvegicus with 6 samples.

Results

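The PER and CRY proteins form the repressor complex of the circadian clock, and the enzymes described with them set how long that complex lasts. The genes were taken by name and kept whatever their level: the period genes Per1, Per2 and Per3, the cryptochrome genes Cry1 and Cry2, the casein kinase 1 genes Csnk1d and Csnk1e, and the beta-TrCP genes Btrc and Fbxw11. All 9 were found among the 22573 gene symbols used. RNA sequencing had been done on cells of the nucleus pulposus, the soft centre of an intervertebral disc, from Sprague Dawley rats. A group of 3 libraries came from cells under cyclic tensile strain, stretched on a Flexcell tension device to 18% elongation at 0.2 Hz for 24 h. It was set against a group of 3 control libraries. The stretching text stands on every sample, so the controls were taken as unstretched from their class label. The labels give no genotype, transgene, age, harvest time or clock synchronisation, and do not say whether the replicates were separate animals or cultures. The p-values therefore measure the spread between these libraries, which may be technical.

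As background, the CLOCK and BMAL1 activators switch on the Per and Cry genes through E-box elements, and the PER and CRY proteins return to the nucleus and repress the activators. Casein kinase 1 delta and epsilon, the products of Csnk1d and Csnk1e, bind PER proteins and phosphorylate them. Phosphorylated PER is recognised by beta-TrCP, the F-box subunit of an SCF ubiquitin ligase, and is degraded by the proteasome. Btrc and Fbxw11 encode closely related forms of beta-TrCP, and disc cells are known to have such a clock of their own. All the data here are RNA levels, so protein amount, phosphorylation and degradation were not measured. Without stated harvest times these libraries cannot give a phase or an amplitude. Whether both groups were harvested at the same time is not stated.

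Under strain, Fbxw11, Per1 and Csnk1e fell, and no gene of the group rose. Fbxw11 stood at 0.671 times its control mean, Per1 at 0.659 times and Csnk1e at 0.79 times. Their relatives Btrc, Per2 and Csnk1d were not called, and neither were Cry1 and Cry2. Of the 9 genes, 8 averaged at least 1 FPKM (fragments scaled to transcript length and library size) over the 6 libraries and were tested, and Per3 lay under that level. A gene was called at an adjusted p under 0.05 from limma on log2(FPKM + 1), fitted over 10180 genes with Benjamini-Hochberg adjustment. In that fit 35.4% of all tested genes were called, 19.0% lower and 16.4% higher under strain (1936 and 1672 genes). That balance turned with the scaling, to 1711 lower and 2138 higher after quantile normalization and to 1657 lower and 2041 higher after scaling to the same median, and without control replicate 1 the total called was 2363 in place of 3608. The 3 falls among 8 tested genes are to be read against that share. In 5 of the 8 tested genes the groups did not overlap, 4 with every strain library below every control (Per1, Cry1, Csnk1e and Fbxw11) and 1 above (Cry2), where 51.9% of all tested genes did not overlap and 28.0% lay wholly below. The median log2 fold change was -0.23 over the 8 genes and -0.01 over all tested genes. In bulk RNA, fewer cells of a type and less RNA per cell cannot be told apart.

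**Figure D1:**
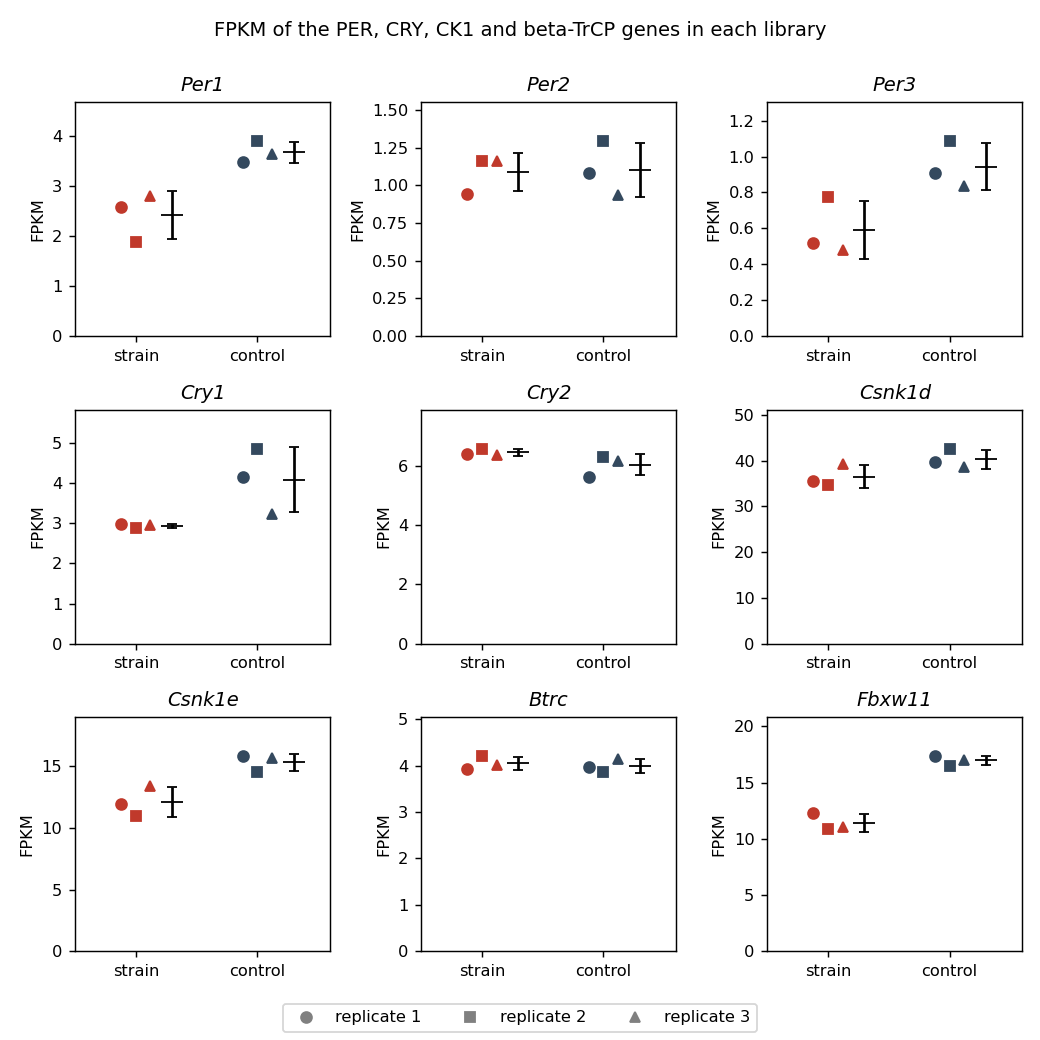
FPKM of the 9 genes in each library, with strain libraries on the left and control libraries on the right of each panel. Symbols mark replicates 1 to 3 and the black bar is the group mean with its SD (n = 3). Fbxw11, Per1 and Csnk1e lie lower in every strain library, while Btrc, Per2 and Csnk1d overlap between the groups. Cry1 and Per3, which were not called, also lie lower in every strain library, and Cry2, not called either, lies higher.

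The libraries had summed FPKM between 309497 and 348238, and the groups separated on the first principal component, which held 78.6% of the variance. On that component strain replicate 1 was the strain library closest to the controls, at -20.6, against -28.9 and -35.9 for the other strain libraries and 24.1 to 32.7 for the controls. Of 10 tested markers of nucleus pulposus and notochordal cells 8 rose and 0 fell, and of 6 tested annulus fibrosus and tendon markers 4 rose and 0 fell. Over all tested genes 16.4% rose and 19.0% fell, the shares against which each marker count here is to be read. The summed level of the nucleus pulposus list, carried mostly by Mgp, was 11979 to 14284 FPKM under strain and 5130 to 5495 FPKM in controls. The summed level of the annulus and tendon list, carried mostly by Col1a1, was 4887 to 5925 FPKM under strain and 1950 to 2449 FPKM in controls. The notochordal gene T averaged 0.1 FPKM under strain and 0.083 FPKM in controls, and the cytokeratin gene Krt19 was also near 0, at 0.046 FPKM under strain and 0.011 FPKM in controls. The collagen gene Col2a1 of the nucleus pulposus list, also under the filter, was at 0.898 FPKM under strain and 0.042 FPKM in controls. Of 4 tested macrophage markers 1 rose and 2 fell. Lyz2 rose, at 3.30 FPKM under strain and 0.249 FPKM in controls (limma adjusted p = 0.00068). Cd68 fell, at 0.633 FPKM under strain and 1.53 FPKM in controls (adjusted p = 0.0088). Adgre1 also fell, at 1.31 FPKM under strain and 3.71 FPKM in controls (adjusted p = 0.030), and Cd14 was not called. The macrophage sum, carried mostly by Cd14, was 20.1 to 23.4 FPKM under strain and 17.6 to 24.1 FPKM in controls. The leukocyte gene Ptprc was at 0.023 FPKM under strain and 0.005 FPKM in controls. The endothelial list had 1 rise among 1 tested, which was Eng. That gene carried most of the endothelial sum, 17.5 to 21.2 FPKM under strain and 13.6 to 14.5 FPKM in controls. Endothelial genes under the filter went either way. Pecam1 was at 0.269 FPKM under strain and 0.069 FPKM in controls, and Flt1 at 0.484 FPKM under strain and 1.43 FPKM in controls. Neural and Schwann markers rose in 2 of 2 tested cases. Their sum, carried mostly by S100b, was 38.3 to 48.2 FPKM under strain and 30.4 to 32.6 FPKM in controls. The Schwann gene Sox10 was near 0, at 0.020 FPKM under strain and 0.029 FPKM in controls. Skeletal muscle markers were not called in 2 of 2 tested cases (4.06 to 9.09 FPKM under strain and 3.43 to 6.36 FPKM in controls). No blood cell marker reached the test. The part of these markers in the falls described here was not tested.

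The period genes are taken first, as the proteins on which the kinases and ligases act. The 250 bases before the annotated start of each are shown because Per1 fell while Per2 did not. They come from RefSeq on the rat build GRCr8, which held such a window for 7 of the 9 genes (all but Cry1 and Csnk1d). They lie at chr10:54304126-54304375 on the plus strand, chr9:99496994-99497243 on the minus strand and chr5:166777801-166778050 on the minus strand. Capitals mark matches on either strand to the E-box CACGTG, its variant CACGTT (the E'-box), the cyclic AMP response element TGACGTCA, its core TGACG, which is part of the full element, and the D-box TTANGTAA, which PAR bZIP factors and NFIL3 bind.
Per1: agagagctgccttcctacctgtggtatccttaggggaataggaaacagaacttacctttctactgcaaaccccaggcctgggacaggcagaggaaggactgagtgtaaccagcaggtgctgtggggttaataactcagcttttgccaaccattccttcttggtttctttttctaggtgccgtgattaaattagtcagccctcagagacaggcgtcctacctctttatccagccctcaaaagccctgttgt
Per2: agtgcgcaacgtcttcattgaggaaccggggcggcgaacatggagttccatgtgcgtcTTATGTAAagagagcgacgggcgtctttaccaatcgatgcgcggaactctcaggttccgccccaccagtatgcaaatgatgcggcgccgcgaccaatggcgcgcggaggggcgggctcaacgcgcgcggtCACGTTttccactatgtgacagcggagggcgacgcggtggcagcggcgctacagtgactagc
Per3: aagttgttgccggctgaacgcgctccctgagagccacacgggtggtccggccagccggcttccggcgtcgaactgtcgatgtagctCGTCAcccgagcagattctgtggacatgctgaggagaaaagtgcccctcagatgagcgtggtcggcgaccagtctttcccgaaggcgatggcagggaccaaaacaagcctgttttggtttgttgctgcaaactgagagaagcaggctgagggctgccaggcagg
The Per2 window held an E'-box 62 to 57 bases before the start and a D-box 192 to 185 bases before it. An E'-box was found in 4.07% of 33360 RefSeq windows of this length and a D-box in 2.05%. The Per3 window held the core TGACG on the opposite strand, 164 to 160 bases before the start. On that strand the core was also in the Csnk1e window, 128 to 124 bases before the start, and in the Btrc window, 235 to 231 bases before it. Over both strands 18.2% of all windows held the core. The Per1 window held none of these letters, and the E-box (5.61% of all windows) and the full response element (1.59%) were in none of the 7 windows. Only the first listed window of each gene was searched, so elements elsewhere, or before any other start of the gene, would be missed. A window without these letters does not show that the gene lacks such elements.

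Per1, the period gene that also responds quickly to cyclic AMP and glucocorticoid signals, had 2.57, 1.88 and 2.81 FPKM in strain replicates 1 to 3, against 3.48, 3.90 and 3.64 FPKM in control replicates 1 to 3. The highest strain library lay below the lowest control, and strain replicate 2 was the lowest of all. Per1 had a log2 fold change of -0.46 ± 0.12 (SE; 95% confidence interval -0.74 to -0.18), with an adjusted p = 0.019 by limma. Among all tested genes 13.3% had a lower fold change than Per1. The call was lost without strain replicate 2 (log2 fold change -0.34, limma adjusted p = 0.062) and without control replicate 2 (-0.43, adjusted p = 0.057).

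Per2, whose product carries the best studied casein kinase and beta-TrCP sites of the family, had 0.943, 1.16 and 1.16 FPKM under strain, against 1.08, 1.29 and 0.937 FPKM in controls. The groups overlapped throughout, with the lowest and the highest library both in the control group. Per2 had a log2 fold change of -0.01 ± 0.11 (95% confidence interval -0.26 to 0.24), with an adjusted p = 0.96 by limma. Changes that lie inside that interval were not excluded by these libraries.

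Per3, the period gene least needed for rhythms in mice, had 0.516, 0.774 and 0.481 FPKM under strain, against 0.908, 1.09 and 0.835 FPKM in controls. Every strain library lay below every control, although strain replicate 2 (0.774 FPKM) came close to control replicate 3 (0.835 FPKM). In a fit without a filter on low values, in which 23.3% of 16152 genes were called, Per3 had a log2 fold change of -0.29 ± 0.10 and an adjusted p = 0.079, so it was not called. With a pseudocount of 0.1 in place of 1 the log2 fold change was -0.61, with an adjusted p = 0.084.

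The summed FPKM of the 3 period genes was 4.03, 3.82 and 4.45 in strain replicates 1 to 3, against 5.47, 6.29 and 5.41 in control replicates 1 to 3. Per1 made up 58.7% ± 8.2 of that sum under strain and 64.3% ± 2.6 in controls (SD, n = 3 each). The low share in strain replicate 2, at 49.3%, lay apart from the 63.8% and 63.1% of the other strain libraries. That library had the lowest Per1 and the highest Per3 of the strain group.

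Of the cryptochrome genes, whose products are the stronger repressors in the complex, Cry1 stood lower in every strain library without passing the test. Cry1 had 2.98, 2.89 and 2.96 FPKM under strain, against 4.15, 4.87 and 3.25 FPKM in controls. The strain libraries were almost equal, and the controls were spread widely, with control replicate 3 near the strain level. The SD of log2(FPKM + 1) for Cry1 was 0.017 among strain libraries and 0.235 among controls, where the median gene had 0.135 among strain libraries and 0.106 among controls. The log2 fold change was -0.36 ± 0.13 (95% confidence interval -0.64 to -0.07), with an adjusted p = 0.055 by limma. Without control replicate 3 the log2 fold change was -0.48 and Cry1 was called (adjusted p = 0.017), and over all alternatives its adjusted p lay between 0.017 and 0.162.

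Cry2, the other cryptochrome gene, had 6.41, 6.58 and 6.36 FPKM under strain, against 5.62, 6.30 and 6.16 FPKM in controls. The strain libraries were all a little above the controls, with the lowest strain library only just above control replicate 2. Cry2 had a log2 fold change of 0.09 ± 0.09 (95% confidence interval -0.12 to 0.29), with an adjusted p = 0.49 by limma. The ratio of Cry1 to Cry2 within a library was 0.465, 0.439 and 0.465 under strain, against 0.739, 0.773 and 0.527 in controls. Cry1 was thus the less abundant cryptochrome in every library, and its share of their summed FPKM was 31.3% ± 0.7 under strain and 40.2% ± 5.0 in controls (SD, n = 3 each). The Cry2 window of RefSeq, at chr3:98860438-98860687 on the minus strand, also held an E'-box, 212 to 207 bases before the start.

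**Figure D2:**
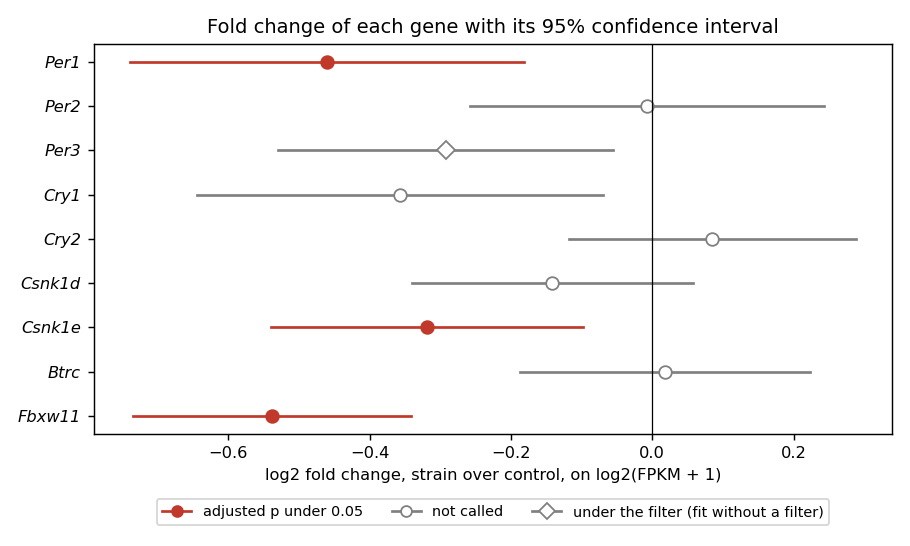
Log2 fold change of strain over control for the 9 genes on the log2(FPKM + 1) scale, each with its 95% confidence interval from limma. Filled points (Fbxw11 at -0.54, Per1 at -0.46, Csnk1e at -0.32) passed an adjusted p of 0.05, open points did not, and the diamond for Per3 comes from the fit without a filter.

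Among the kinases, Csnk1e fell and Csnk1d was not called. Csnk1e had 11.95, 10.97 and 13.4 FPKM under strain, against 15.8, 14.5 and 15.6 FPKM in controls. The groups did not overlap, and strain replicate 3 came nearest to the controls. The log2 fold change was -0.32 ± 0.10 (95% confidence interval -0.54 to -0.10), with an adjusted p = 0.032 by limma. The call was lost in 6 of 14 alternatives, and the adjusted p ranged from 0.0103 to 0.114. Those 6 were the omission of strain replicate 1 (limma adjusted p = 0.078), strain replicate 2 (0.114), control replicate 1 (0.11) or control replicate 3 (0.091), quantile normalization (0.057) and scaling to the same median (0.058).

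Csnk1d was the most abundant of the 9 genes, with 35.7, 34.6 and 39.3 FPKM under strain, against 39.8, 42.7 and 38.6 FPKM in controls. Strain replicate 3 lay above control replicate 3, so the groups overlapped. The log2 fold change was -0.14 ± 0.09 (95% confidence interval -0.34 to 0.06), with an adjusted p = 0.24 by limma. The ratio of Csnk1d to Csnk1e was 2.98, 3.15 and 2.93 under strain, against 2.52, 2.94 and 2.47 in controls. The highest control ratio lay inside the range of the strain libraries.

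Of the beta-TrCP genes, Fbxw11 had the lowest adjusted p of the group and Btrc was not called. Fbxw11 had 12.3, 10.8 and 11.1 FPKM under strain, against 17.3, 16.5 and 17.0 FPKM in controls. The gap between the highest strain library and the lowest control was wider than the range within either group. The log2 fold change was -0.54 ± 0.09 (95% confidence interval -0.73 to -0.34), with an adjusted p = 0.0018 by limma. It was called in all 14 alternatives, with adjusted p between 0.0016 and 0.013. Among all tested genes 10.6% had a lower fold change and 9.36% a smaller p.

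Btrc had 3.93, 4.202 and 4.01 FPKM under strain, against 3.96, 3.85 and 4.15 FPKM in controls. The libraries of both groups were interleaved. Btrc had a log2 fold change of 0.02 ± 0.09 (95% confidence interval -0.19 to 0.22), with an adjusted p = 0.90 by limma. The summed FPKM of the beta-TrCP genes was 15.4 ± 0.7 under strain and 21.0 ± 0.5 in controls, of which Fbxw11 made up 73.7% ± 1.9 under strain and 81.0% ± 0.5 in controls (SD, n = 3 each). The sources used here do not say how reads shared between such related genes were assigned, which applies to Btrc and Fbxw11 as well as to Csnk1d and Csnk1e.

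The ratio of Fbxw11 to Btrc within a library was 3.12, 2.58 and 2.76 under strain, against 4.38, 4.28 and 4.11 in controls. The ratio of Per1 to Per2 was 2.73, 1.62 and 2.41 under strain, against 3.23, 3.02 and 3.88 in controls. Neither of these ratios overlapped between the groups. In log2 units the ratios differed, strain minus control, by -0.60 for Fbxw11 to Btrc, by -0.61 for Per1 to Per2, by -0.55 for Cry1 to Cry2 and by 0.20 for Csnk1d to Csnk1e. The difference for Per1 to Per2 was -0.39 without strain replicate 2. An exact two-sided permutation test gave p = 0.1 for each of the first 3 and p = 0.2 for the kinases (adjusted over the 4 ratios 0.133 and 0.2). With 3 libraries against 3, that exact test cannot go below p = 0.1.

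**Figure D3:**
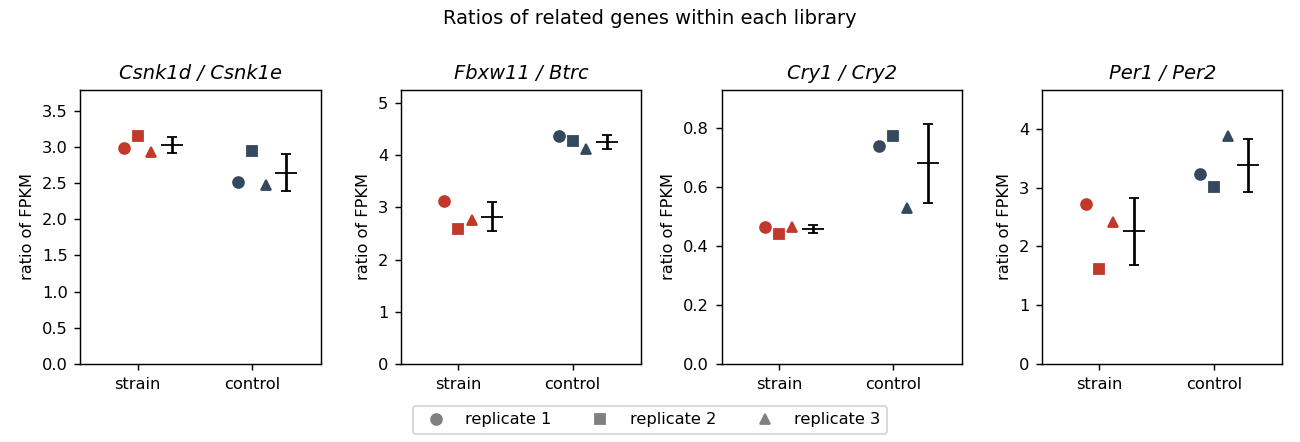
Ratio of FPKM between related genes within each library, strain on the left and control on the right. Symbols mark replicates 1 to 3 and bars are the group mean with its SD (n = 3). The strain ratios of Fbxw11 to Btrc (2.58 to 3.12) all lie below the control ratios (4.11 to 4.38), while those of Csnk1d to Csnk1e overlap.

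Ordered by mean FPKM, which is a level per transcript length, the strain group ran Csnk1d, Csnk1e, Fbxw11, Cry2, Btrc, Cry1, Per1, Per2 and Per3. The means spanned 36.5 ± 2.5 FPKM for Csnk1d to 0.59 ± 0.16 FPKM for Per3. The library ranges of Csnk1e (10.97 to 13.4 FPKM) and Fbxw11 (10.8 to 12.3 FPKM) overlapped, and those of the other neighbours did not. In controls Fbxw11 (17.0 ± 0.4 FPKM) stood above Csnk1e (15.3 ± 0.7 FPKM) and their ranges did not overlap. Further down the control order, the ranges of Cry1 and Btrc overlapped, as did those of Btrc and Per1 and those of Per2 and Per3. The kinase genes stood above their PER substrates in RNA level in both groups.

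The other genes that act on this loop were read from the same fit, in lists chosen by function. Their counts are to be read against the 19.0% of all tested genes that fell and the 16.4% that rose. Among 5 subunits and regulators of the SCF core, which carries beta-TrCP, 1 fell and 0 rose. It was Cul1, the cullin scaffold, at 16.7 ± 1.2 FPKM under strain and 29.0 ± 2.4 FPKM in controls (SD, n = 3 each; log2 fold change -0.76, limma adjusted p = 0.0005), and it was called in all 14 alternatives. The adaptor gene Skp1 was at 166 ± 12 FPKM under strain and 170 ± 5 FPKM in controls. Rbx1, the RING subunit, was at 42.7 ± 6.9 FPKM under strain and 44.8 ± 2.2 FPKM in controls, and Cand1, which exchanges F-box proteins on CUL1, was at 34.4 ± 1.6 FPKM under strain and 37.2 ± 5.2 FPKM in controls.

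Among 5 tested genes for other ubiquitin ligases and deubiquitinases of PER and CRY, 2 fell and 0 rose. Over all tested genes 19.0% fell. Mdm2, a ligase known from p53 and also reported to act on PER2, was at 30.5 ± 1.9 FPKM under strain and 48.1 ± 6.1 FPKM in controls (log2 fold change -0.63, limma adjusted p = 0.0024). Usp2, a deubiquitinase with clock-controlled expression, was at 3.403 ± 0.258 FPKM under strain and 4.70 ± 0.41 FPKM in controls (adjusted p = 0.021), a call lost in 4 of 13 alternatives. Usp7, a deubiquitinase of cryptochromes, was at 16.6 ± 1.3 FPKM under strain and 18.0 ± 1.0 FPKM in controls, and Ddb1, of a cryptochrome ligase, at 125 ± 6 FPKM under strain and 116 ± 9 FPKM in controls, and neither was called.

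Of 11 tested genes for other kinases of PER and CRY or relatives of such kinases, 0 were called in either direction. The relatives include the casein kinase 1 gamma genes. The smallest p belonged to Csnk1g3, of the casein kinase 1 gamma genes, at 9.82 ± 1.195 FPKM under strain and 12.2 ± 0.5 FPKM in controls (limma adjusted p = 0.058). Gsk3b, a kinase that acts on several clock proteins, was at 11.2 ± 1.5 FPKM under strain and 13.7 ± 0.2 FPKM in controls (adjusted p = 0.066). Csnk2a2, a catalytic subunit of casein kinase 2, was at 8.17 ± 0.06 FPKM under strain and 9.67 ± 0.66 FPKM in controls (adjusted p = 0.089). Csnk1g1 was at 1.199 ± 0.421 FPKM under strain and 1.65 ± 0.10 FPKM in controls (adjusted p = 0.16). Unadjusted, 3 of the 11 had p under 0.05, and limma without trend and robust moderation also called 0. Without strain replicate 2 the count was 1 fall, and without strain replicate 3 it was 1 fall and 1 rise. Of 6 phosphatase catalytic subunits 2 fell, where 19.0% of all tested genes fell. They were Ppp5c, whose product acts on casein kinase 1 epsilon, and Ppp2cb. Ppp5c was at 12.6 ± 2.0 FPKM under strain and 16.5 ± 1.1 FPKM in controls (adjusted p = 0.038), and Ppp2cb at 53.9 ± 3.3 FPKM under strain and 64.4 ± 1.5 FPKM in controls (adjusted p = 0.043). Each of these calls was lost in 9 of 14 alternatives. Ppp1cc (66.4 ± 1.4 FPKM under strain and 75.7 ± 2.2 FPKM in controls) and Ppp2ca (44.5 ± 0.8 FPKM under strain and 49.6 ± 3.6 FPKM in controls) were not called.

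A further list held genes of the cyclic AMP and glucocorticoid inputs to the Per genes, together with glucocorticoid-responsive genes. Of its 12 tested genes 6 fell and 0 rose, where 19.0% of all tested genes fell and 16.4% rose. The median log2 fold change of this mixed list was -0.36. The glucocorticoid receptor gene Nr3c1 was at 10.04 ± 1.38 FPKM under strain and 17.8 ± 0.6 FPKM in controls (log2 fold change -0.77, limma adjusted p = 0.00087). Crebbp, the acetyltransferase that CREB recruits, was at 2.97 ± 0.30 FPKM under strain and 4.81 ± 0.12 FPKM in controls (adjusted p = 0.003). The glucocorticoid-responsive genes Dusp1 (131 ± 19 FPKM under strain and 215 ± 10 FPKM in controls) and Sgk1 (3.75 ± 0.27 FPKM under strain and 9.44 ± 3.19 FPKM in controls) fell as well (adjusted p = 0.0023 and 0.0031). Of the other glucocorticoid-responsive genes of the list, named here after their values were seen, Tsc22d3 (log2 fold change -0.39, adjusted p = 0.118), Klf9 (-0.13, 0.41) and Fkbp5 (-0.07, 0.63) were not called. The calls of Nr3c1, Crebbp, Dusp1 and Sgk1 held in every alternative in which the gene was tested.

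Among the genes that drive the Per and Cry promoters, 1 of 3 activators fell, Npas2 (adjusted p = 0.04), a call lost in 9 of 14 alternatives. Clock was at 6.41 ± 1.26 FPKM under strain and 8.14 ± 0.76 FPKM in controls, and Arntl, which encodes BMAL1, at 8.80 ± 0.15 FPKM under strain and 9.06 ± 1.88 FPKM in controls. Of the receptors that act on Arntl, 3 of 3 tested fell, where 19.0% of all tested genes fell. They were Nr1d2, Nr1d1 and Rora, with log2 fold changes of -0.91, -0.62 and -0.37. The call of Rora was lost in 6 of 13 alternatives. Of 6 tested output factors and further repressors 1 fell and 1 rose: Tef (log2 fold change -0.40, limma adjusted p = 0.016) and Dbp (0.64, adjusted p = 0.033), calls lost in 4 of 13 and 6 of 14 alternatives. Ciart and Bhlhe40 were not called, with log2 fold changes of -0.99 and -0.32. Ciart was called in 3 of 13 alternatives, among them the omission of control replicate 3 (-1.44, limma adjusted p = 0.0002), and Bhlhe40 was at -0.148 without control replicate 1. Tef and Dbp encode PAR bZIP factors, the family that binds D-boxes. The D-box shown in the Per2 window is a match of letters only, and binding there was not measured.

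**Figure D4:**
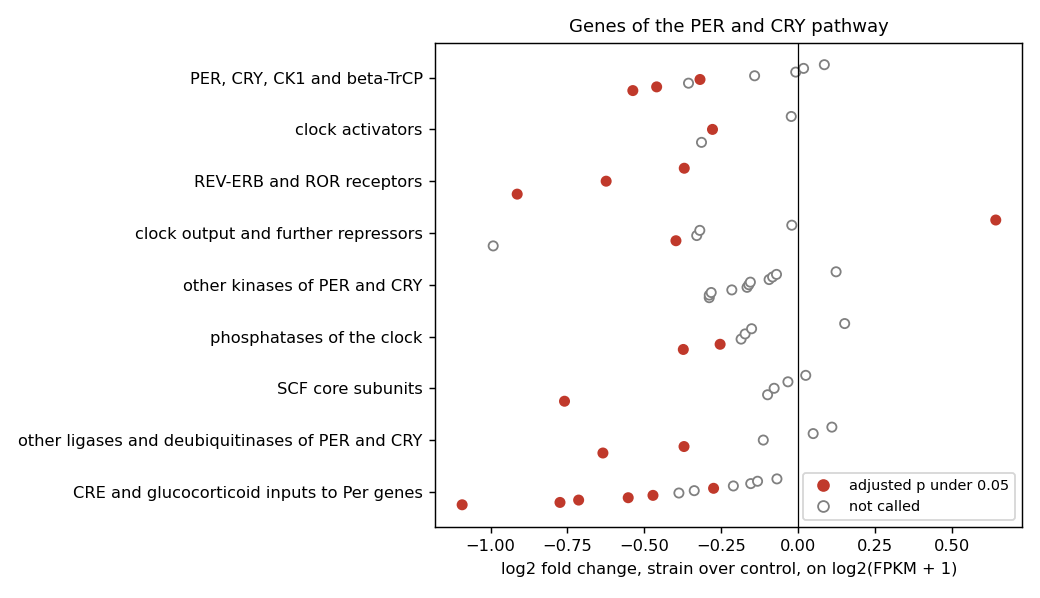
Log2 fold change of strain over control on the log2(FPKM + 1) scale for each tested gene of the lists, 1 point per gene, with filled points at an adjusted p under 0.05. Most filled points lie left of 0, and the filled point at the right is Dbp at 0.64.

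The genes whose log2(FPKM + 1) values were most like those of Fbxw11 over the 6 libraries were Cxcl1, Cxcl3, Il11, Ccl3 and Csf3, which encode chemokines and cytokines. Their Pearson correlations with Fbxw11 were 0.9998, 0.9996, 0.9995, 0.9993 and 0.9991. The 6 points form the 2 groups, so these values describe the difference between groups as well as the order within them. In each of these genes, as in Fbxw11, strain replicate 1 was the highest strain library and control replicate 1 the highest control, with control replicate 2 the lowest. The genes were picked for the highest correlation among the 10180 tested genes, provisional symbols left out. High values and a like order of the libraries therefore follow from that choice, and shared regulation was not tested. Cxcl1 had 3860, 2412 and 2508 FPKM under strain, against 13492, 10958 and 12419 FPKM in controls. Its log2 fold change was -2.10, against -0.54 for Fbxw11.

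The dependence of the calls on single libraries is shown gene by gene. Leaving out 1 library at a time, between 1 and 3 of the 9 genes were called. Without strain replicate 1, the library nearest to the controls, 2 were called (Fbxw11 and Per1). Without strain replicate 2 only Fbxw11 was called. Quantile normalization and scaling to the same median also left Fbxw11 and Per1.

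**Figure D5:**
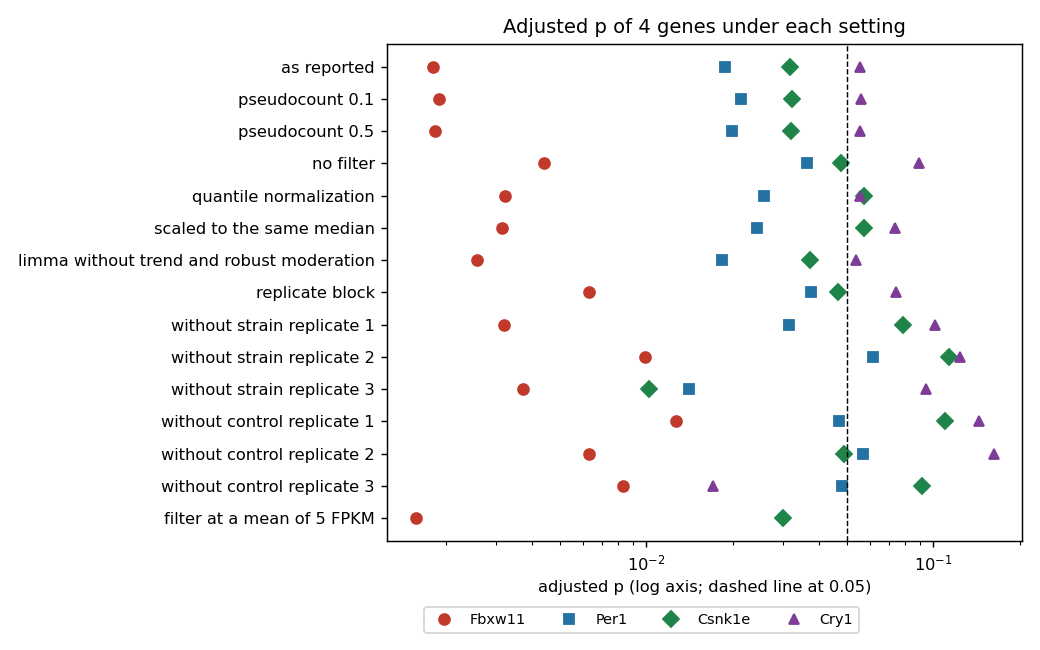
Adjusted p from limma for Fbxw11, Per1, Csnk1e and Cry1 under each setting, on a log axis with a dashed line at 0.05. Fbxw11 stays left of the line throughout (highest 0.013), Per1 crosses it without strain replicate 2 (0.062) or control replicate 2 (0.057), and Cry1 lies left of it only without control replicate 3 (0.017); Per1 and Cry1 have no point at the filter of 5 FPKM.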

How the data were processed

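The authors' deposited files gave 1 FPKM value per gene symbol and library (3 strain and 3 control libraries, 22601 symbols each). Per the submitters' processing notes, DESeq, Cufflinks, Cuffdiff 2.2.1, HISAT2 2.0.4 and cutadapt 1.9.3 were used; the sources used here do not give their order, the annotation or any scaling. The single build in those notes is the human hg19, although 85.1% of the symbols used matched the rat GRCr8 gene table, so no coordinates of the files were used. Rows with a date in place of a symbol (27) and 1 malformed row were left out. FPKM keeps no read totals: among low values (0.003 to 0.06 FPKM) at most 12.8% of genes shared the commonest ratio between a pair of libraries within 0.01 log2 units, so reads could not be recovered; depth is unknown and counting intervals are not given. No pair of libraries shared an identical value among those of at least 1 FPKM in both.

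The 10180 genes that averaged 1 FPKM or more were fitted with limma 3.58.1 in R 4.3.3 on log2(FPKM + 1), strain against control, with trended and robust moderation. The tests were two-sided, with Benjamini-Hochberg adjusted p under 0.05 as the threshold. Fold changes on this scale understate the change of low genes, and ratios of group means are of FPKM. The named genes are the 9 genes, up to 4 genes of smallest p in each list, and the 5 genes most correlated with the gene of lowest adjusted p; the cell type markers named lie outside this rule. The genes and lists were chosen with earlier results of these data known. Alternatives changed the pseudocount, filter, scaling, moderation, replicate block and libraries.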

Additional observations from a re-analysis of the deposited data

How the results depend on the processing

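With 1 library left out at a time, the count of called genes over the whole table lay between 2363 and 3572 (3608 with all libraries), and the count among the 9 genes between 1 and 3. The count of 2363 came without control replicate 1, and the count of 1 without strain replicate 2. Over the alternatives to the fold changes of all named genes, 529 kept their direction and side of the threshold, 55 lost a call, 6 gained a call and 13 changed sign. The sign changes concerned genes that were not called. With 1 library left out at a time, the log2 fold change of Per2 lay between -0.065 and 0.056 (0.043 without strain replicate 1 and 0.056 without control replicate 2), and it was 0.021 after scaling to the same median. Btrc lay between -0.0043 (without strain replicate 2) and 0.0405, with -0.002 without control replicate 2. Arntl lay between -0.148 and 0.118 (without control replicate 2), with 0.037 after quantile normalization and 0.027 after scaling to the same median. Skp1 lay between -0.093 and 0.00083 (without strain replicate 2), with 0.067 after quantile normalization and 0.021 after scaling to the same median. Rbx1 lay between -0.199 and 0.024 (without strain replicate 2), and Cand1 between -0.196 and 0.00073 (without control replicate 3). The cause was not tested.

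Same-numbered libraries of the groups did not deviate together (correlations of 0.03, 0.11 and -0.12 across genes), so the numbers were not taken to pair them. With the replicate number as a block, 3116 genes were called over the table, and the same count of 3 among the 9 genes. Per3 lies under the filter, and its 11 alternatives without a filter, chosen after seeing the data, gave adjusted p between 0.054 and 0.189. The depth behind each value is unknown.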
